A study of Mus musculus with 12 samples.

Results

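The 35 genes described here encode the machinery that builds autophagosomes in mammalian cells, together with 4 receptors that bring cargo to it. They were taken by gene name from a table of 56748 entries, and all 35 were found in the scaled count table and in the TPM table. A scaled count is a gene's read count multiplied so that the libraries of a fraction share 1 total. All 35 also passed the filter on low values (10 scaled counts in 3 libraries) in every comparison below. RNA came from retinas of 2-month-old mice in 4 groups of 3 libraries. Control mice (Abca4+/+) were littermates of the Abca4-/- mice, called Abca4Ko here, and lack of this transporter of retinal derivatives is used as a model of Stargardt disease. Every animal carried RiboTag, an epitope-tagged ribosomal protein, and the i75-Rod-Cre transgene, in which the rhodopsin promoter drives Cre so that the tag is made in rods. From each genotype there was RNA of the whole retinal lysate (retina) and RNA on ribosomes pulled down by the tag (rod TRAP). The low-input cDNA reaction started from 5 ng for retina and 10 ng for rod TRAP, so the input and the fraction cannot be told apart. The labels do not say how many animals went into a library, and p-values measure only the spread between these libraries.

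In autophagy a double membrane closes around cytoplasm or a chosen cargo and then fuses with lysosomes. The ULK kinase complex starts the process and a class III PI3-kinase complex marks the membrane with a lipid. ATG2 proteins and ATG9A then supply lipid, and an ubiquitin-like system attaches ATG8 proteins (the LC3 and GABARAP families) to the membrane. Receptors such as p62, the product of Sqstm1, hold the cargo on one side and ATG8 proteins on the other. Rods are long-lived cells with a high turnover of protein and membrane, and basal autophagy is known to protect them.

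The message of Abca4 was checked first. In control it reached 53193 to 61017 scaled counts on rod ribosomes, and retina libraries had 37619 to 38929. The libraries labelled Abca4Ko and numbered 1 and 2 held 0.349% to 0.958% of the control mean, but those numbered 3 held 23.5% in rod TRAP and 21.3% in retina. The main counts of members called in Abca4Ko are therefore also given without these libraries. All 15 rod markers were higher in rod TRAP than in retina in control, and 54 of the 58 markers of other retinal cells that were tested were lower. The other markers summed to 710 to 964 TPM in rod TRAP and to 5988 to 10888 TPM in retina. The lowest retina sum was that of Abca4Ko replicate 1, below the 7965 TPM of the next. TPM is a message's share per length, so genes can be set side by side on it.

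The 4 cargo receptors differed between the fractions in opposite directions. Tax1bp1, Nbr1 and Optn were higher on rod ribosomes than in the whole retina in both genotypes, and Sqstm1 was lower. The 250 bases before the annotated start of each receptor gene follow, as a description of these 4 genes. They are from RefSeq on GRCm38.p6, and the first window was taken where the table held 2. The windows are chr6:52713479-52713728 (plus strand) for Tax1bp1, chr11:101551857-101552106 (plus) for Nbr1, chr2:5064118-5064367 (minus) for Optn and chr11:50210821-50211070 (minus) for Sqstm1. Capitals mark matches to the motifs searched.
Tax1bp1: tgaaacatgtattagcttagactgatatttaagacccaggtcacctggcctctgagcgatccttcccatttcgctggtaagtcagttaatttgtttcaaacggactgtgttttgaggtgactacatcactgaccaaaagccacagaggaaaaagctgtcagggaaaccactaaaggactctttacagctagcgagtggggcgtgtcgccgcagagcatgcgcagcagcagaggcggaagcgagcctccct
Nbr1: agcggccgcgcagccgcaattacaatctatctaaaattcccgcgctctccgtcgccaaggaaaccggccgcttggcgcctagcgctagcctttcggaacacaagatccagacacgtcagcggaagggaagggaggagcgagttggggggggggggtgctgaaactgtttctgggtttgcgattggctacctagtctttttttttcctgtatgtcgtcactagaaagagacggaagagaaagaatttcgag
Optn: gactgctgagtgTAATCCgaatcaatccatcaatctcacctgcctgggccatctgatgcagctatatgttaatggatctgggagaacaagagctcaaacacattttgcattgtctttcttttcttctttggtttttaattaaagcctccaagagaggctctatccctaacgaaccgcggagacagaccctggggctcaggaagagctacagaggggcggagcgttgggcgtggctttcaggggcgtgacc
Sqstm1: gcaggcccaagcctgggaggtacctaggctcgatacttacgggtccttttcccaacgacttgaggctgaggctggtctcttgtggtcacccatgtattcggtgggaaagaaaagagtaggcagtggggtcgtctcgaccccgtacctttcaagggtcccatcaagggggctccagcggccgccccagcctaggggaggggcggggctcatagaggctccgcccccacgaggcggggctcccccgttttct
The motifs searched on both strands were the E-box CACGTG, bound by the TFEB family, the homeobox core TAATCC, bound by the rod and cone factor CRX, and TGACNNNGC, the core of the antioxidant response element. The single match in the windows printed was TAATCC in that of Optn, so no matches overlapped. Of the 29 members with a window in the table, TAATCC was found in 4 (Ambra1, Atg4c, Atg7 and Optn), that is 13.8%, against 7.21% of all 27025 genes with a window. CACGTG was found in 3 (Atg3, Atg5 and Atg7), or 10.3% against 6.86%, and TGACNNNGC in 3 (Atg13, Tax1bp1 and Ulk2), or 10.3% against 11.5%. The Tax1bp1 match lay in its second window. A match is a run of letters and not a bound site.

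Tax1bp1, which links ubiquitinated cargo to ATG8 proteins, stood at 409.3, 407.2 and 387.9 TPM in control rod TRAP and at 45.1, 44.9 and 28.9 TPM in control retina. In Abca4Ko the values were 517.6, 385.3 and 397.8 TPM in rod TRAP and 87.5, 46 and 77.7 TPM in retina. Every rod TRAP library was thus above every retina library, and replicate 1 of Abca4Ko was the highest of its group in both fractions. The log2 fold change of rod TRAP over retina, fitted with limma on log2(CPM + 0.5), was 3.67 ± 0.15 (SE) in control (adjusted p = 5.2e-10) and 2.90 ± 0.30 in Abca4Ko (adjusted p = 9.3e-06). Nbr1, a receptor of similar build to p62, measured 247.9, 238.8 and 216.8 TPM in control rod TRAP against 81.9, 97.1 and 52.3 TPM in retina. The Abca4Ko libraries gave 183.4, 224.2 and 225 TPM against 78.3, 92.6 and 116.3 TPM. The 2 fractions did not overlap, and the log2 fold change was 1.96 ± 0.15 in control and 1.48 ± 0.14 in Abca4Ko.

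Optn encodes optineurin, a receptor for damaged mitochondria and bacteria. It stood at 283, 290 and 266.3 TPM in control rod TRAP and 222.2, 280.6 and 270.9 TPM in Abca4Ko rod TRAP. In retina the values were 127.9, 145.3 and 102.8 TPM in control and 119.1, 125.8 and 125.6 TPM in Abca4Ko. All 6 rod TRAP libraries were above all 6 retina libraries, with log2 fold changes of 1.48 ± 0.12 and 1.30 ± 0.16.

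Sqstm1 ran the other way. Its message measured 38.7, 39.9 and 39.6 TPM in control rod TRAP and 189, 256.9 and 265.8 TPM in control retina. In Abca4Ko it was at 34.7, 40.2 and 50.9 TPM in rod TRAP and 105.5, 244.3 and 241.3 TPM in retina. The fractions did not overlap, and Abca4Ko retina replicate 1 lay well below the other 5 retina libraries. That library also had the lowest sums of the Müller glia (2824 TPM), bipolar (890 TPM) and ganglion cell (613 TPM) markers, and the part of these cells in its Sqstm1 level was not tested. The log2 fold change was -2.18 ± 0.15 in control (adjusted p = 4.5e-08) and -1.89 ± 0.21 in Abca4Ko (adjusted p = 1.6e-05), or -2.24 ± 0.12 without that library. Sqstm1 fell together with the markers of other retinal cells, whose part was not tested. In bulk RNA, fewer cells of a type and less RNA per cell cannot be told apart.

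**Figure D1:**
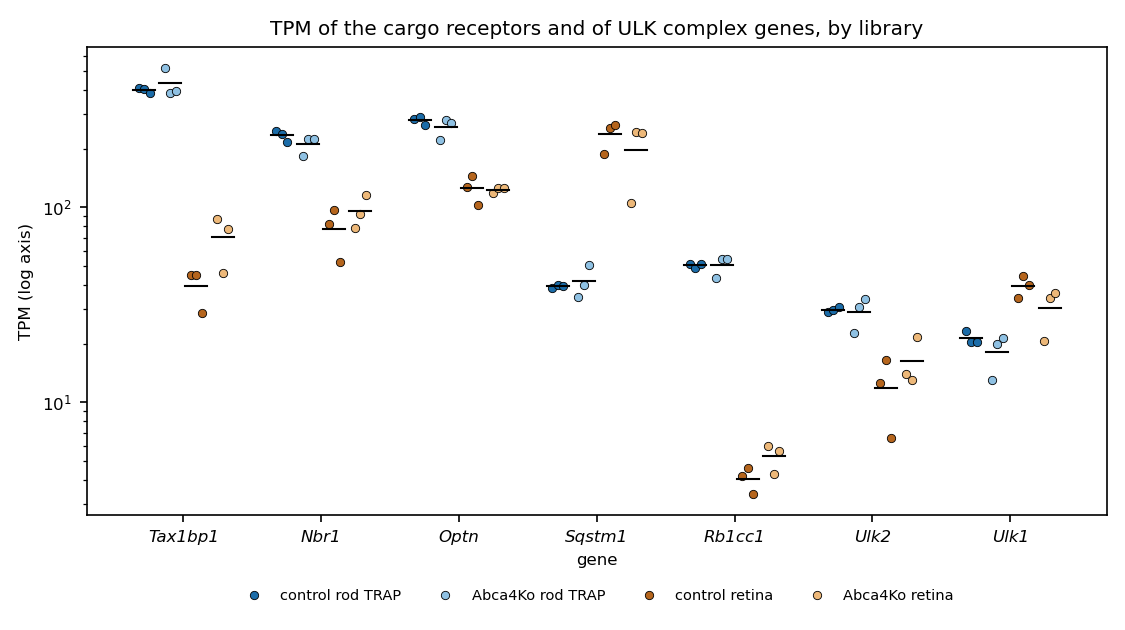
TPM (log axis) of the 4 cargo receptors and of 3 ULK complex genes, with 1 point per library, a bar at the mean of each group of 3, and colours for the 4 groups. Tax1bp1, Nbr1, Optn, Rb1cc1 and Ulk2 are higher in every rod TRAP library than in any retina library, and Sqstm1 is lower in every rod TRAP library.

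The make-up of the receptor pool was accordingly different in the 2 fractions. The summed TPM of the 4 receptors was 955 ± 38.6 (SD, n = 3) in control rod TRAP and 479 ± 56.3 in control retina. Tax1bp1 made up 42.0% ± 0.48 of it in control rod TRAP and 8.28% ± 1.87 in control retina. Sqstm1 made up 4.13% ± 0.20 and 49.6% ± 8.52. In rod TRAP the order of levels was Tax1bp1, Optn, Nbr1 and Sqstm1, and over both genotypes only the ranges of Optn and Nbr1 overlapped. In retina the order was Sqstm1, Optn, Nbr1 and Tax1bp1, and over both genotypes the ranges of neighbours overlapped throughout. Within control the ranges of neighbours stayed apart in both fractions. Abca4Ko gave 45.9% ± 7.09 for Tax1bp1 and 4.44% ± 0.89 for Sqstm1 in rod TRAP, and 15.1% ± 6.77 and 39.4% ± 11.0 in retina.

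Over all members in control, 17 were higher in rod TRAP and 7 were lower (adjusted p under 0.05). Leaving out any 1 of the 3 control rod TRAP libraries left 4 lower, since Atg2a, Wipi2 and Gabarapl1 were lost. The counts with all libraries are 48.6% and 20% of the 35, beside 36.6% and 38.8% of all 16286 genes tested. The median log2 fold change was 0.21 for the members and -0.03 for all genes. In Abca4Ko 14 members were higher and 4 were lower, or 40% and 11.4%, beside 30.4% and 33.7% of all 16036 genes tested. The members' median was 0.32 and that of all genes 0.00437. All 14 and all 4 were also called in that direction in control. Without both Abca4Ko libraries numbered 3, 12 were higher and 3 lower, beside 25.6% and 17.8% of 13150 genes, and Ulk1, Atg5 and Atg4a were the members no longer called. The groups did not overlap for 27 members in control, against 79.8% of all genes, and for 21 in Abca4Ko, against 69.4%. Since so many genes differed between the fractions, a call alone does not set a member apart.

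The split between higher and lower depends on the scaling. With the authors' scaling alone, which fixes the total of each library, the median of all genes moved to -0.62 in control and -0.49 in Abca4Ko. It gave 12 members higher and 18 lower in control, beside 21% and 58.6% of all genes, and 7 and 10 in Abca4Ko, beside 14.2% and 48.7%. On log2(TPM + 1) the counts were 15 and 13 in control, beside 27% and 41.8%. They were 10 and 5 in Abca4Ko, beside 19.3% and 32%, with a median of all genes of -0.23 and -0.15. The fold changes given here are from the trimmed-mean rescaling, relative to a median of all genes near 0. A set of 9 members kept call and direction in all 14 alternatives in control and all 15 in Abca4Ko. They were Rb1cc1, Pik3c3, Uvrag, Optn, Nbr1 and Tax1bp1, called higher, and Gabarap, Map1lc3a and Sqstm1, called lower.

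**Figure D2:**
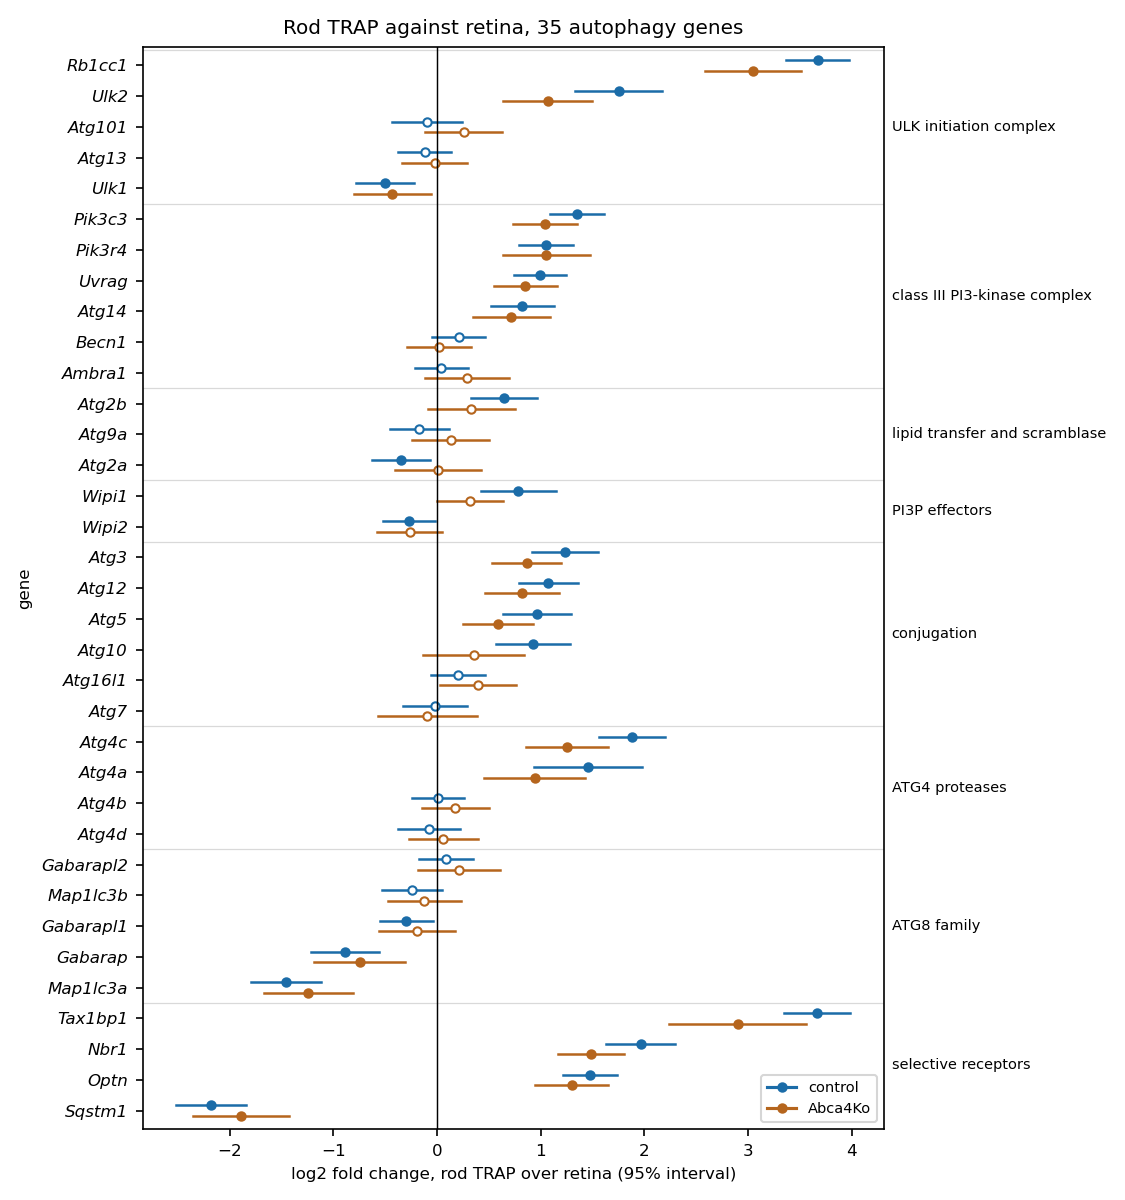
Log2 fold change of rod TRAP over retina for the 35 genes, grouped by role, in control (blue) and Abca4Ko (orange), with limma's 95% interval. Filled points passed an adjusted p of 0.05. Tax1bp1 and Rb1cc1 lie near 3 to 4 and Sqstm1 near -2 in both genotypes.

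Within the ULK initiation complex, Rb1cc1 (FIP200, the scaffold) and the kinase Ulk2 were higher in rod TRAP and the kinase Ulk1 was lower. Rb1cc1 stood at 51.3, 48.8 and 51.5 TPM in control rod TRAP and at 4.2, 4.6 and 3.4 TPM in control retina. Its Abca4Ko values were 43.6, 54.3 and 54.6 TPM against 6, 4.3 and 5.6 TPM. The log2 fold change was 3.67 ± 0.14 in control (adjusted p = 3.8e-10), level with that of Tax1bp1 within the error, and 3.05 ± 0.21 in Abca4Ko. In a fit that blocked on replicate number and was corrected for the GC content of the coding sequence, added after seeing the data, it was 1.5 in control, below Tax1bp1 (1.97) and Nbr1 (1.78). Ulk2 measured 29.2, 29.7 and 30.9 TPM in control rod TRAP and 12.5, 16.5 and 6.6 TPM in retina, with 22.6, 30.7 and 33.8 TPM against 14, 13.1 and 21.7 TPM in Abca4Ko. Its log2 fold change was 1.75 ± 0.19 in control and 1.07 ± 0.19 in Abca4Ko. The fractions did not overlap for either gene.

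Ulk1 was at 23.2, 20.4 and 20.4 TPM in control rod TRAP against 34.2, 44.6 and 40 TPM in retina. In Abca4Ko it was at 13.1, 19.9 and 21.3 TPM against 20.6, 34.3 and 36.3 TPM. Its log2 fold change was -0.50 ± 0.13 in control and -0.43 ± 0.17 in Abca4Ko, where the adjusted p was 0.043, 7 of 15 alternatives lost the call and another turned it. On the TPM scale the Abca4Ko fractions of Ulk1 overlapped. With the replicate block and GC correction Ulk1 was called higher in rod TRAP in both genotypes (0.41 and 0.31), as Ulk2 was. On the TPM scale Ulk2 was above Ulk1 in 6 of 6 rod TRAP libraries and below it in 6 of 6 retina libraries. Atg13 and Atg101, which hold the complex together, were called in neither genotype, with log2 fold changes from -0.12 to 0.26.

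All 6 genes of the class III PI3-kinase complex had a positive log2 fold change in both genotypes in the main fit. In each genotype 4 were called higher, beside 36.6% of all genes tested in control and 30.4% in Abca4Ko. Pik3c3, the lipid kinase VPS34, was at 1.35 ± 0.12 in control and 1.04 ± 0.14 in Abca4Ko. Its level was 25.5 to 35.6 TPM in rod TRAP and 13.7 to 22.2 TPM in retina. The regulatory subunit Pik3r4 was at 1.05 in both and Uvrag at 1.00 and 0.85. Atg14, which directs the kinase to autophagosome formation, was at 0.82 and 0.72. Becn1, the scaffold, and Ambra1, which binds it, were not called, with log2 fold changes of 0.21 and 0.04 in control. With the authors' scaling alone both were called lower in control (-0.43 and -0.60), and Becn1 also in Abca4Ko (-0.51). With the replicate block and GC correction both were called higher in control. Pik3r4 measured 16.2 to 28.8 TPM in rod TRAP and 10.9 to 20.9 TPM in retina, Uvrag 27.2 to 30.6 and 14.6 to 22.5 TPM, and Atg14 13 to 20.8 and 10.1 to 15.7 TPM. Only the Uvrag and Pik3c3 ranges over both genotypes stayed apart. Becn1 was the most abundant gene of this complex in both fractions, at 65.6 to 81.3 TPM in rod TRAP and 72.2 to 99.3 TPM in retina.

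Of the genes that supply lipid, Atg2b rose (0.65 ± 0.15) and Atg2a fell (-0.35 ± 0.13) in control, and the scramblase Atg9a was not called (-0.17 ± 0.13). None of the 3 was called in Abca4Ko. The PI3P effectors divided in the same manner in control, with Wipi1 higher (0.78 ± 0.17) and Wipi2 lower (-0.27 ± 0.12, adjusted p = 0.049). Neither was called in Abca4Ko. Atg2b and Wipi1 lost their calls in control both with the authors' scaling alone and on log2(TPM + 1). On the TPM scale the control fractions of Atg2b and Wipi1 overlapped. Levels in these 2 groups were moderate, with Atg9a at 27.3 to 35.6 TPM in rod TRAP and 25.5 to 52.5 TPM in retina, and Atg2a lowest (6.3 to 9.7 and 6.2 to 16.2 TPM). With the replicate number as a block, Wipi2 was no longer called in control (adjusted p = 0.071), which left 17 higher and 6 lower, beside 36.7% and 39.2% of all genes. The block also called Atg2b, Wipi1 and Atg16l1 higher in Abca4Ko, which made 17 higher and 4 lower there, beside 34.4% and 36.6% of all genes.

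Of the conjugation enzymes, Atg3, Atg12 and Atg5 were called higher in rod TRAP in both genotypes. With the replicate block and GC correction Atg3 (-0.39) and Atg5 (-0.41) were called lower in control and were not called in Abca4Ko (-0.21 and -0.29). Atg3, the E2-like enzyme of ATG8 lipidation, had a log2 fold change of 1.24 ± 0.15 in control and 0.87 ± 0.15 in Abca4Ko, Atg12 of 1.07 and 0.82, and Atg5 of 0.97 and 0.59. Atg10, the E2-like enzyme for ATG12, was called in control only, at 0.93 ± 0.17 against 0.35 ± 0.22. On the TPM scale the rod TRAP libraries of Atg3 lay at 39.6 to 46.5 and its retina libraries at 17.4 to 31.3, and those of Atg12 at 36.8 to 43.7 and 18.4 to 28.8, without overlap over both genotypes. Atg5 also kept apart, at 18.6 to 21.6 and 10.1 to 16.5 TPM, while the ranges of Atg10 met (8 to 13.8 and 7.3 to 9.9 TPM). Atg16l1, which places the enzyme on the membrane, and the E1-like Atg7 were called in neither. Among the ATG4 proteases, which cut ATG8 proteins before and after lipidation, Atg4c and Atg4a were higher and Atg4b and Atg4d were not called. Atg4c measured 64.6, 64.9 and 60 TPM in control rod TRAP against 22.4, 26.2 and 15.8 TPM in retina. In Abca4Ko it was at 56.9, 61 and 60.6 TPM against 30.2, 24.8 and 32.4 TPM. Its log2 fold changes were 1.88 ± 0.15 and 1.26 ± 0.18, with no overlap of the fractions. Neither Atg4c nor Atg4a kept its call with the replicate block and GC correction.

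Atg4a had the lowest mean level of the 35 in both fractions, at 6.9, 6.9 and 7.1 TPM in control and 5, 6.4 and 6.9 TPM in Abca4Ko rod TRAP. In retina it measured 5.2, 3.4 and 2 TPM in control and 4, 3.5 and 4.5 TPM in Abca4Ko. The highest mean level was that of Tax1bp1 in rod TRAP (418 TPM) and of Gabarapl1 in retina (424 TPM). The log2 fold change of Atg4a was 1.46 ± 0.24 in control and 0.94 ± 0.22 in Abca4Ko.

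In the ATG8 family 3 of 5 genes were called lower in rod TRAP in control and none higher, beside 38.8% of all genes lower. In Abca4Ko 2 of the 5 were called lower, beside 33.7% of all genes. With the replicate block and GC correction Map1lc3b was called higher (0.87 in control and 0.86 in Abca4Ko). Map1lc3a (LC3A) stood at 67, 56.7 and 63.4 TPM in control rod TRAP and 183.6, 219.5 and 253.8 TPM in control retina, and at 74.4, 61.1 and 65.5 TPM against 176.3, 216.4 and 180.3 TPM in Abca4Ko. The fractions did not overlap, and the log2 fold change was -1.45 ± 0.16 in control (adjusted p = 2.3e-06) and -1.24 ± 0.19 in Abca4Ko. Gabarap measured 92, 95.7 and 86.7 TPM in control rod TRAP and 200, 212.6 and 264 TPM in control retina. In Abca4Ko it measured 112.3, 101.6 and 97.8 TPM against 202.9, 219.4 and 194.6 TPM. Again the fractions did not overlap, with log2 fold changes of -0.89 ± 0.15 and -0.74 ± 0.20. How reads shared with related genes or processed copies were assigned is not given in the sources used here, so levels of the small ATG8 genes are less certain than the others.

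Gabarapl1 stood at 339.6, 302.4 and 296.6 TPM in control rod TRAP and 437, 473.3 and 466.2 TPM in control retina. In Abca4Ko it was at 292.1, 312.6 and 271 TPM against 361.3, 412.6 and 394 TPM. It was called lower in control (-0.30 ± 0.12, adjusted p = 0.037) and not in Abca4Ko (-0.19 ± 0.17), and leaving out any of the control rod TRAP libraries ended the call, as it did for Atg2a and Wipi2. Gabarapl2 measured 272, 274.4 and 266.7 TPM in control rod TRAP against 308.8, 336 and 345.9 TPM in retina, and 316.6, 289 and 261.3 TPM against 299.4, 314.5 and 299.7 TPM in Abca4Ko. Map1lc3b (LC3B) measured 157.2, 130 and 148.4 TPM against 189.1, 206.7 and 217.8 TPM in control, and 143.7, 142.8 and 138.6 TPM against 166.3, 175.4 and 176.2 TPM in Abca4Ko. Neither was called in either genotype in the main fit, with log2 fold changes from -0.24 to 0.21. On the TPM scale Map1lc3b was lower in every rod TRAP library than in any retina library. It was called lower with the authors' scaling alone in both genotypes and on log2(TPM + 1) in control, but higher with the replicate block and GC correction. In control the mean TPM of Gabarapl2 was lower in rod TRAP while the fit gave 0.09, and on log2(TPM + 1) it was called lower (-0.28).

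The share of each gene in the summed TPM of the family describes which ATG8 message predominated. The sum was 883 ± 38.9 TPM (SD, n = 3) in control rod TRAP and 1438 ± 115 TPM in control retina. Gabarapl1 was the largest part in each group on average, with 35.4% ± 1.11 in control rod TRAP and 32.0% ± 1.63 in control retina, followed by Gabarapl2 with 30.7% ± 1.32 and 23.0% ± 0.57. In rod TRAP the TPM ranges of these 2 genes overlapped over both genotypes, but stayed apart within control. Map1lc3a made up 7.06% ± 0.40 of the pool in control rod TRAP and 15.2% ± 1.24 in control retina, and Gabarap 10.4% ± 0.67 and 15.6% ± 1.26. Map1lc3b differed less, with 16.4% ± 1.14 and 14.2% ± 0.14. In Abca4Ko the Map1lc3a share was 7.5% ± 0.67 in rod TRAP and 15.1% ± 0.94 in retina, and that of Gabarap 11.6% ± 0.39 and 16.3% ± 0.60. These shares are a description with no test.

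**Figure D3:**
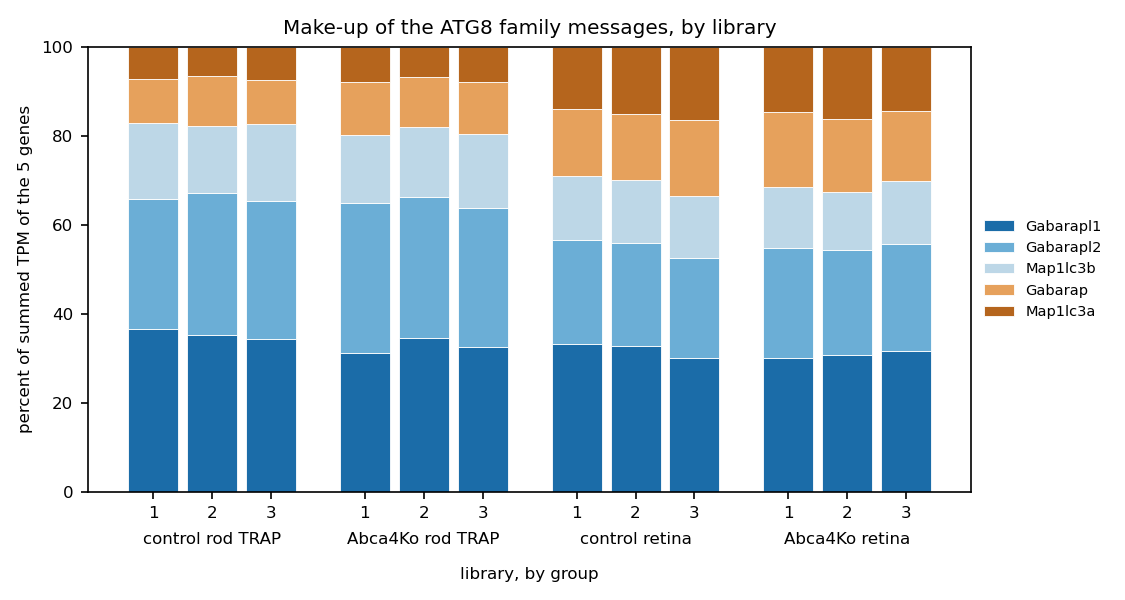
Share of each of the 5 ATG8 family genes in their summed TPM (percent), with 1 stacked bar per library in 4 groups of 3. The Map1lc3a part is near 7% in the rod TRAP libraries of control and near 15% in retina.

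The fold changes between the fractions moved with base composition. Over all 13317 tested genes with a value, 81.8% of those tested in control, the log2 fold change fell with the GC content of the longest annotated coding sequence (Pearson r = -0.45, Spearman rho = -0.50). Over the 35 members r was -0.71 and rho -0.66 in control, and -0.64 and -0.60 in Abca4Ko. The genes share the same 6 libraries, so these are descriptions. Genes with 40% to 45% GC had a median log2 fold change of 1.73 in control, and genes above 60% one of -0.86. Rb1cc1 (39.6% GC), Atg4c (42.6%) and Tax1bp1 (42.8%) are the members with the lowest content, and Map1lc3b (64.4%) the one with the highest. The Map1lc3b value is that of a 522-base sequence, against 354 to 366 bases in the rest of the ATG8 family. Its GC-corrected values rest on that sequence, and no other form was used. Sqstm1 is at 58.1%.

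A correction for the trend, chosen after it had been seen, was fitted together with the replicate block. In control Tax1bp1 then had a log2 fold change of 1.97 ± 0.10, Nbr1 of 1.78 ± 0.11, Rb1cc1 of 1.5 ± 0.11, Optn of 1.45 ± 0.10 and Ulk2 of 1.36 ± 0.14. All 5 kept their call, and the largest values were much reduced. Sqstm1 was at -1.36 ± 0.10, Gabarap at -1.55 ± 0.16 and Map1lc3a at -0.71 ± 0.11, and these also kept their calls. Atg4c (0.15 ± 0.10) and Atg4a (0.16 ± 0.21) were no longer called. Atg3 (-0.39), Atg5 (-0.41) and Atg10 (-0.43) were called in the opposite direction, as were Ulk1 (0.41) and Atg2a (0.59). The rise of the low-GC genes Atg3, Atg5, Atg10, Atg4a and Atg4c thus did not hold with the correction, while the calls of the 4 receptors did. With the correction 21 members were higher and 8 lower in control, beside 45% and 37.4% of the 13319 genes that could be fitted. In Abca4Ko 21 and 5 were, beside 43.9% and 34.8% of 13065 genes.

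**Figure D4:**
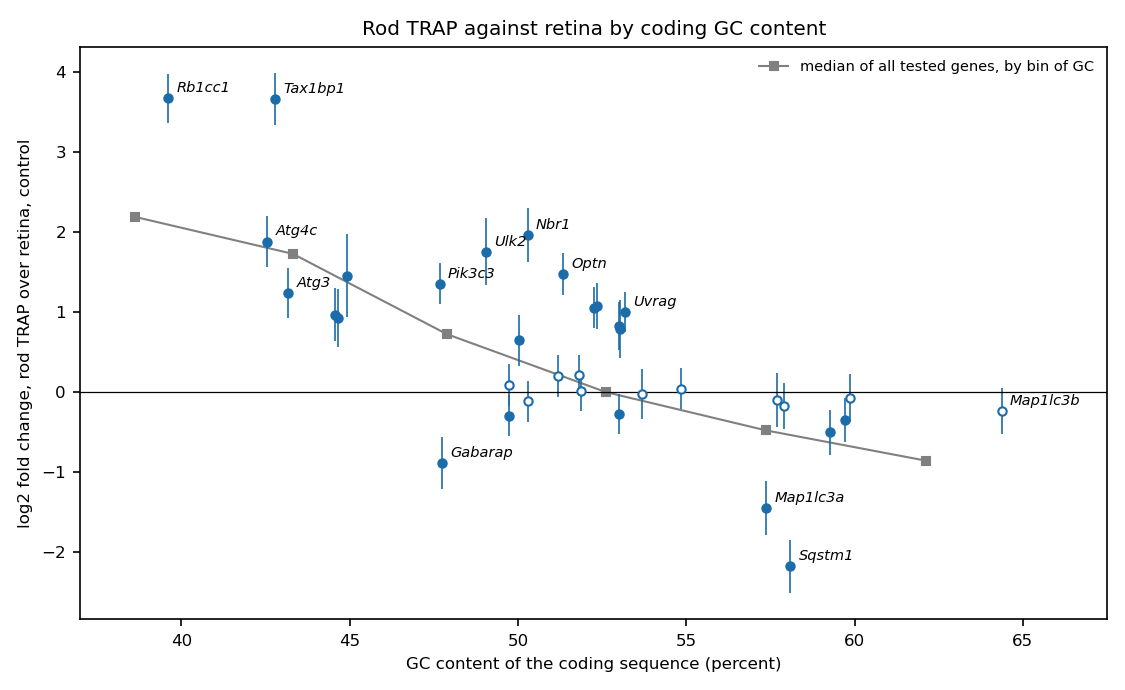
Log2 fold change of rod TRAP over retina in control against the GC content of the coding sequence (percent), with 1 point per member, limma's 95% interval, filled points for adjusted p under 0.05, and grey squares for the median of all tested genes by bin of GC. Tax1bp1, Nbr1, Optn and Ulk2 lie above the grey line, Sqstm1, Map1lc3a, Gabarap and Atg3 below it, and Atg4c close to it.

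The genotype comparison asked whether loss of Abca4 goes with a change in these messages. In rod TRAP no member was called, beside 1.13% of all 13104 genes tested (148 genes). Without Abca4Ko replicate 3 the count was also 0. By unadjusted p under 0.05 there were 2 members and 1368 genes. The members' log2 fold changes of Abca4Ko over control ran from -0.41 to 0.30 with a median of -0.01, and the 95% intervals of all 35 lay between -0.75 and 0.56. The groups did not overlap for 3 members (Atg10, Atg16l1 and Atg12), or 8.57%, against 17.8% of all genes tested.

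The smallest unadjusted p was that of Atg10, at 13.8, 11.7 and 13 TPM in control and 8, 11.1 and 10 TPM in Abca4Ko rod TRAP. Its log2 fold change was -0.41 with a 95% interval from -0.75 to -0.07 (adjusted p = 0.37). Atg101 followed, at 25.8, 30.4 and 27.2 TPM in control and 25.8, 37.1 and 37.2 TPM in Abca4Ko, where replicate 1 was at the control level. Its log2 fold change was 0.30 with an interval from 0.04 to 0.56 (adjusted p = 0.39), and without Abca4Ko replicate 1 it was called (0.38, adjusted p = 0.046). Atg16l1, the third, measured 27, 30.1 and 27.4 TPM against 32.5, 30.8 and 31.3 TPM, with a log2 fold change of 0.22 and an interval from -0.02 to 0.47 (adjusted p = 0.53). None of the 3 differences passed the test with all libraries. For the receptors the log2 fold change was 0.16 for Tax1bp1 (interval -0.20 to 0.52, and -0.07 without Abca4Ko replicate 1, its highest library), 0.09 for Sqstm1 (-0.12 to 0.30), -0.04 for Optn (-0.21 to 0.12) and -0.11 for Nbr1 (-0.29 to 0.06). The 5 ATG8 genes ran from 0.04 to 0.19.

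In retina no member was called either, beside 0.106% of all 16964 genes tested (18 genes). Leaving out Abca4Ko replicate 1 or replicate 3 also gave 0. By unadjusted p under 0.05 there were 5 members and 2034 genes. The log2 fold changes ran from -0.50 to 0.81, and the intervals lay between -0.92 and 1.48. The groups did not overlap for 6 members of the 35 (Atg2a, Rb1cc1, Atg4b, Atg4c, Ulk1 and Atg9a), against 19.7% of all genes. Tax1bp1 had the smallest unadjusted p, with a log2 fold change of 0.81 and an interval from 0.15 to 1.48 (adjusted p = 0.40). Without Abca4Ko replicate 1 it was 0.49 (adjusted p = 0.47). The groups overlapped, since Abca4Ko replicate 2 at 46 TPM was close to the control libraries at 45.1 and 44.9 TPM.

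Atg2a came next, at 13.9, 16.2 and 14.1 TPM in control and 6.2, 14.4 and 11.5 TPM in Abca4Ko retina, with a log2 fold change of -0.50 and an interval from -0.92 to -0.08 (adjusted p = 0.40). Atg9a measured 44.7, 50.3 and 52.5 TPM against 25.5, 44.4 and 45.9 TPM, with -0.42 and an interval from -0.82 to -0.01 (adjusted p = 0.41). Both were lowest in Abca4Ko retina replicate 1. The retina fold changes moved with GC content here too (r = -0.52 over 13671 genes and -0.74 over the 35 members), while in rod TRAP r was 0.06 over all genes and 0.24 over the members.

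**Figure D5:**
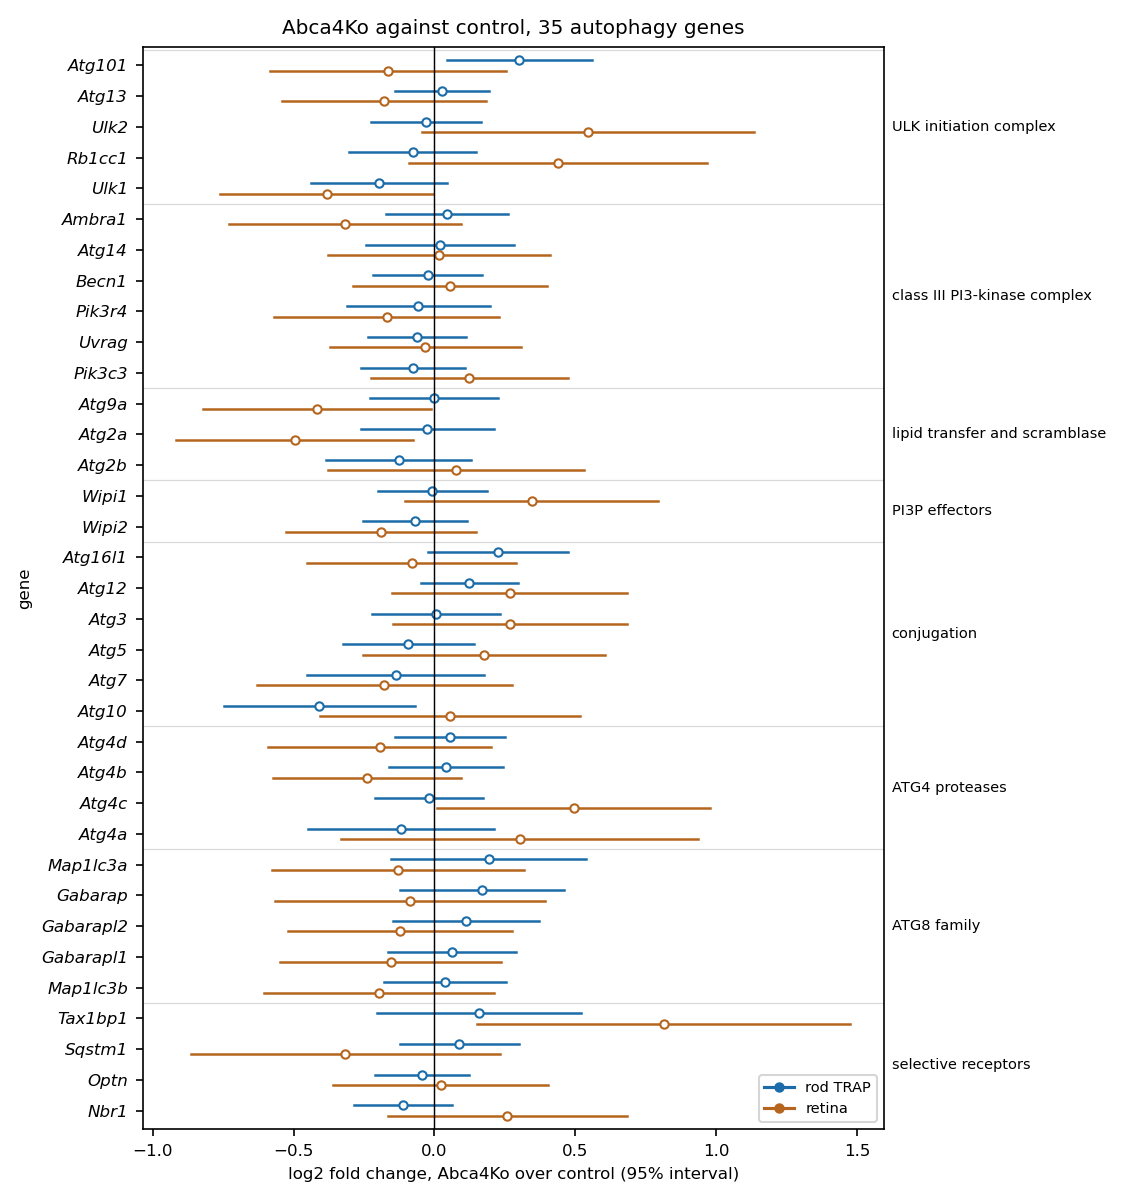
Log2 fold change of Abca4Ko over control for the 35 genes, grouped by role, in rod TRAP (blue) and retina (orange), with limma's 95% interval. All points are open because none passed an adjusted p of 0.05, and the retina intervals are the wider.

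The interaction of genotype and fraction asked whether the genotype difference itself differed between rod TRAP and retina. No member was called, beside 0.00579% of all 17273 genes tested (1 gene). By unadjusted p under 0.05 there were 1 member and 1952 genes. The smallest unadjusted p belonged to Atg4c (-0.54, interval -1.06 to -0.02, adjusted p = 0.43), Rb1cc1 (-0.54, -1.10 to 0.02, adjusted p = 0.46) and Atg101 (0.44, -0.03 to 0.91, adjusted p = 0.47). That fewer members were called between the fractions in Abca4Ko than in control is thus not shown to be a difference between the genotypes. Over the 35 members the interaction moved with GC content (r = 0.76).

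Another 55 genes of autophagy that are not among the 35 were listed for context, of which 54 were tested between the fractions. In control 27 were higher in rod TRAP and 9 lower (median log2 fold change 0.30), beside the 36.6% and 38.8% of all genes. In Abca4Ko there were 19 and 6 (median 0.21), beside 30.4% and 33.7%. Without both libraries numbered 3 there were 10 and 4 of 53 tested, beside 25.6% and 17.8% of all genes in that fit. Of the 12 other receptors and mitophagy genes 8 were higher and none lower in control, and 5 higher and 1 lower in Abca4Ko. The signalling and transcription genes had 9 of 18 higher and 2 lower in control, and 6 and 2 in Abca4Ko. The genes of fusion with lysosomes had 6 of 13 higher and 4 lower in control, and 4 and 1 in Abca4Ko. The core and accessory genes had 4 of 11 higher and 3 lower in control, and 4 and 2 in Abca4Ko.

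Tbk1, the kinase that phosphorylates OPTN and p62, had the largest rise of this list in control (1.92 ± 0.18), at 30.8, 29.6 and 26.9 TPM in rod TRAP against 9.7, 12.4 and 6.1 TPM in retina. Prkaa1, a catalytic subunit of AMPK, followed (1.89 ± 0.16), then Tmem41b, an endoplasmic reticulum scramblase (1.57 ± 0.14). The lowest were Atg9b, with 0, 0 and 1 scaled counts in control rod TRAP against 44, 48 and 43 in retina, Atg16l2 (-1.86 ± 0.23) and Akt1s1, an mTORC1 subunit (-1.03 ± 0.18).

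Bnip3, a mitophagy receptor on the outer mitochondrial membrane, was the single gene of that list called between the genotypes. It was called in rod TRAP, where 53 genes of the list were tested, beside 1.13% of all genes. It stood at 141.3, 120.5 and 130.7 TPM in control rod TRAP and at 79, 73.5 and 109.6 TPM in Abca4Ko rod TRAP. All Abca4Ko libraries were below all control libraries, beside 17.8% of all genes whose groups did not overlap in either direction. The log2 fold change was -0.62 ± 0.12 (adjusted p = 0.032). The call held in 7 of 14 alternatives, and the values of all 14 ran from -0.75 to -0.53. It was lost when any of the control libraries or Abca4Ko replicate 2 was left out (adjusted p = 0.12 to 0.21). It was also lost with the authors' scaling alone, in limma without trend and robust, and on log2(TPM + 1) (adjusted p = 0.082 to 0.195). Without Abca4Ko replicate 3 the value was -0.75 (adjusted p = 0.0046). In retina Bnip3 was at 149.2, 167.6 and 139.7 TPM in control and 117.1, 142.4 and 171.9 TPM in Abca4Ko, with a log2 fold change of -0.04 ± 0.15. The genotype difference was not shown to differ between the fractions (interaction -0.61 ± 0.19, adjusted p = 0.41). Bnip3 was lower in rod TRAP than in retina in Abca4Ko (-0.60 ± 0.16, adjusted p = 0.0069). In control it was not called in the main fit (0.09 ± 0.12). There it was called lower with the authors' scaling alone (-0.55) and with the replicate block and GC correction (-0.62).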

How the data were processed

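Per the labels, RNA before and after TRAP was converted with a low-input kit, and the submitters' processing notes name CASAVA 1.8.2, HISAT2, DESeq2, edgeR and GRCm39 without roles. The counter and annotation are not given in the sources used here. The authors deposited, per gene, a scaled count, treated here as a score because library totals agree within each fraction (17096515 to 17097707 in rod TRAP, 17860761 to 17862326 in retina), and TPM to 1 decimal. True depth is therefore unknown. A test for raw counts had been planned and was replaced by limma 3.58.1 (trend, robust, R 4.3.3) on log2(CPM + 0.5). TMM factors (trimmed mean of M, trims 0.3 and 0.05) rescaled the libraries (0.82 to 0.84 in rod TRAP, 1.06 to 1.34 in retina). A gene was tested with at least 10 scaled counts in at least 3 libraries. Tests were two-sided with Benjamini-Hochberg adjustment over all genes tested, and such fits were tested on simulated data. Errors of fold changes are limma's standard errors, and fold changes on this scale understate those of genes near 0.

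Groups and replicate numbers came from the labels. Same-numbered rod TRAP and retina libraries deviated together from their group means (r 0.16 to 0.29 in control, 0.23 to 0.47 in Abca4Ko). For libraries of different number r was -0.18 to -0.0086 in control and -0.48 to 0.24 in Abca4Ko. The numbers thus went with a pairing of the fractions in control. In Abca4Ko the ranges overlapped, so the pairing is not settled there. The main fits, with their errors, p-values and counts, and the main interaction did not use the numbers. Blocked values are printed where they change a call. The members and lists were chosen with earlier results of these data known. Full values were given for the 5 largest rises and falls called in both genotypes, the ATG8 and receptor genes, the members with the smallest unadjusted p between genotypes (up to 3) and the highest and lowest levels. Only 4 falls were called in both. Other autophagy genes were named when called between genotypes or among the 3 largest rises or falls. Coding GC came from GENCODE M21 and promoters from RefSeq, on an older build than that of the files. Proteins were not used here.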

Additional observations from a re-analysis of the deposited data

How the results depend on the processing

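Values below are for rod TRAP against retina unless stated, and the cause of a change was not tested. With the authors' scaling alone 18 members were lower in control, and 7 were higher and 10 lower in Abca4Ko. It also gave, in control, Becn1 -0.43, Ambra1 -0.60, Atg16l1 -0.44, Atg4b -0.63 and Gabarapl2 -0.56 (log2), and in Abca4Ko Becn1 -0.51 and Atg4d -0.47, each called against a main value of the opposite sign. On log2(TPM + 1) 13 members were lower in control and Gabarapl2 was at -0.28. With the replicate block and GC correction, added after seeing the data, the sign turned in control for Ulk1 (0.41), Atg101 (0.68), Atg2a (0.59), Atg9a (0.63), Atg3 (-0.39), Atg5 (-0.41), Atg7 (0.30), Atg10 (-0.43), Atg4d (0.87) and Map1lc3b (0.87), and in Abca4Ko for Ulk1 (0.31), Atg3 (-0.21), Atg5 (-0.29), Atg10 (-0.51) and Map1lc3b (0.86). Leaving out 1 library gave 4 to 8 members lower in control, 3 to 5 in Abca4Ko, and 0 to 1 called between genotypes in rod TRAP (Atg101, without Abca4Ko replicate 1). No alternative called a member between genotypes in retina or in the interaction, whose GC correction is void because 79.7% of the tested genes had a GC value, under the minimum of 80%. Of 2450 alternative values of single genes, 2209 kept direction and side of the threshold.

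The replicate block gave 17 members higher and 6 lower in control and 17 and 4 in Abca4Ko. Between genotypes the samples share only a number (r -0.13 to 0.02 in rod TRAP, -0.39 to -0.02 in retina), and the block, like the interaction's, called 0 members. Of 80 alternative values of the ATG8 shares, 3 moved by more than 1 SD.

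Groups of 3 libraries and totals fixed by scaling limit the precision. Abca4Ko libraries numbered 3 retain Abca4 message, Abca4Ko retina replicate 1 stands apart, and cDNA input differs between the fractions.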
